A study of Mus musculus with 6 samples.

Results

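The 9 genes described here act on single-strand breaks in DNA and on nicks in which topoisomerase 1 has become trapped: Top1, Tdp1, Tdp2, Parp1, Parp2, Xrcc1, Aptx, Polb and Lig3. They were taken by name from a table of 38924 mouse genes, 1 row per gene by Ensembl identifier, and all 9 were found and passed the filter on low counts that left 15525 genes for testing. RNA was sequenced from mouse epidermal cells purified for CD49f, an integrin subunit that basal keratinocytes carry on their surface. The 3 K14-Cre-positive samples carried Rnaseh2b flox/flox with K14-Cre, a recombinase under the keratin 14 promoter of basal keratinocytes, and the 3 K14-Cre-negative samples carried Rnaseh2b flox/flox without the Cre. Cre without floxed alleles was not among the groups, so the presence of Cre and the loss of Rnaseh2b cannot be told apart. Neither the age of the animals nor whether each sample is a separate animal is given in the labels. The p-values set the difference between the groups against the spread of these samples, and some of that spread may be technical. If samples shared an animal, the p-values would be too small.

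RNase H2, of which Rnaseh2b encodes a subunit, normally nicks DNA beside a misincorporated ribonucleotide and so starts its removal. Where it is missing, topoisomerase 1 can cut at the ribonucleotide instead, and this leaves nicks with damaged ends. Topoisomerase 1 relaxes DNA through a transient nick to which it is covalently bound, and Tdp1 frees the DNA end when the enzyme is stuck there. Parp1 and Parp2 sense nicks and build chains of poly(ADP-ribose), which recruit the scaffold protein Xrcc1. Xrcc1 brings in enzymes that clean the ends (Aptx), fill the gap (Polb) and seal it (Lig3). These statements are background, and protein, nicks and repair were not measured here.

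Rnaseh2b mRNA checked the labels: it had 5.29, 3.98 and 3.28 CPM in Cre-positive libraries, against 21.8, 20.7 and 21.7 CPM in Cre-negative ones, where CPM are read counts scaled to the effective size of each library. Its log2 fold change was -2.34 (SE 0.17, adjusted p by edgeR = 0.0102), and it was the 1 gene of 4 RNase H genes that changed. That call ended without Cre-positive replicate 2 (adjusted p by edgeR = 0.0508) and without Cre-negative replicate 1, 2 or 3 (0.124, 0.0841 and 0.103), while the log2 fold change stayed between -2.56 and -2.19 without any 1 library. Library totals ran from 23186065 to 31718094 counts in the Cre-positive group and from 22948779 to 25362538 in the Cre-negative group. Cre-positive replicate 3 stood apart from the other libraries. Within the Cre-positive group the chi-square per degree of freedom between libraries was 45.6 and 63.8 for the pairs that include it and 13.7 for the pair that does not, against 8.71 to 13.2 in the Cre-negative group. The 5 suprabasal keratinocyte markers tested, Krt10 among them, summed to between 102000 and 138000 CPM in Cre-positive libraries and between 81300 and 103000 CPM in Cre-negative ones. The 7 basal markers, Krt5, Krt14 and Itga6 among them, summed to between 16300 and 18100 CPM in Cre-positive and between 16300 and 18900 CPM in Cre-negative libraries. The sum is mostly Krt5 and Krt14, and single markers lay on either side: Krt15 had 926, 941 and 1240 CPM in Cre-positive libraries, against 2190, 1760 and 1920 CPM in Cre-negative ones (log2 fold change -0.92, adjusted p by edgeR = 0.0572), and Itgb4 had 327, 307 and 383 CPM in Cre-positive libraries, against 237, 246 and 235 CPM in Cre-negative ones (0.50, adjusted p by edgeR = 0.0865). Neither overlapped between the groups. By edgeR 1 basal marker was called lower under total count scaling, with no filter, with sex as a covariate and without Cre-positive replicate 3. In that last setting 1 basal and 1 suprabasal marker were also called higher. Of the basal and suprabasal markers 0 passed by edgeR or limma-voom, with 2 and 4 at an unadjusted p under 0.05 and 2 and 1 by DESeq2. Sex, read from the counts, was 2 males and 1 female in the Cre-positive group and 1 male and 2 females in the Cre-negative group.

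None of the 9 repair genes passed the threshold: 0 rose and 0 fell by edgeR at an adjusted p of 0.05, and 3 had an unadjusted p under 0.05. Over all tested genes 0.515% passed (63 higher and 17 lower), and 18.8% had an unadjusted p under 0.05 (8.48% lower, the direction of all 3 of these). With limma-voom 0 of the 9 passed as well, where 0.425% of all genes did (0.0902% as lower). By DESeq2, which called 5.46% of all genes and 1.86% as lower, 1 of the 9 passed, Parp1. Of the 9 genes 8 had a negative log2 fold change, which held for 51.0% of all tested genes, and their median was -0.15, against -0.005 over all genes. In 6 of the 9, Top1, Tdp1, Tdp2, Parp1, Parp2 and Xrcc1, every Cre-positive library lay below every Cre-negative one. Over all tested genes 13.8% were separated in that direction and 28.0% in either. In related lists, 26 of 26 replication, 16 of 17 mitosis, 17 of 21 end-processing and 8 of 11 glycosylase genes were also negative. Of these lists 10, 1, 7 and 3 genes were separated as lower. Of 10 other topoisomerase genes 7 were negative and 3 separated as lower, and of 15 other ADP-ribose genes 5 and 0. Separated as higher were 3 ADP-ribose genes, 1 end-processing gene and 0 genes of the other lists, beside 14.1% of all tested genes. With all 6 libraries a downward lean was thus not particular to the 9. Without Cre-positive replicate 3, 25 of 26 replication, 14 of 21 end-processing and 9 of 11 glycosylase genes were negative, beside all 9 repair genes. In that setting 5 of 17 mitosis, 5 of 10 other topoisomerase and 4 of 15 other ADP-ribose genes were negative. The sum over the 9 genes ran from 437 to 454 CPM in Cre-positive libraries and from 488 to 513 CPM in Cre-negative libraries.

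Scaling by total count alone put the median of all genes at -0.12. The count of separated genes was then 7 of 9, with Lig3 added, beside 24.3% of all tested genes. Relative to the median of all genes, 8 of the 9 lay lower under each of 12 alternatives and all 9 without Cre-positive replicate 3. In bulk samples, fewer cells of a type and less RNA per cell cannot be told apart.

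**Figure D1:**
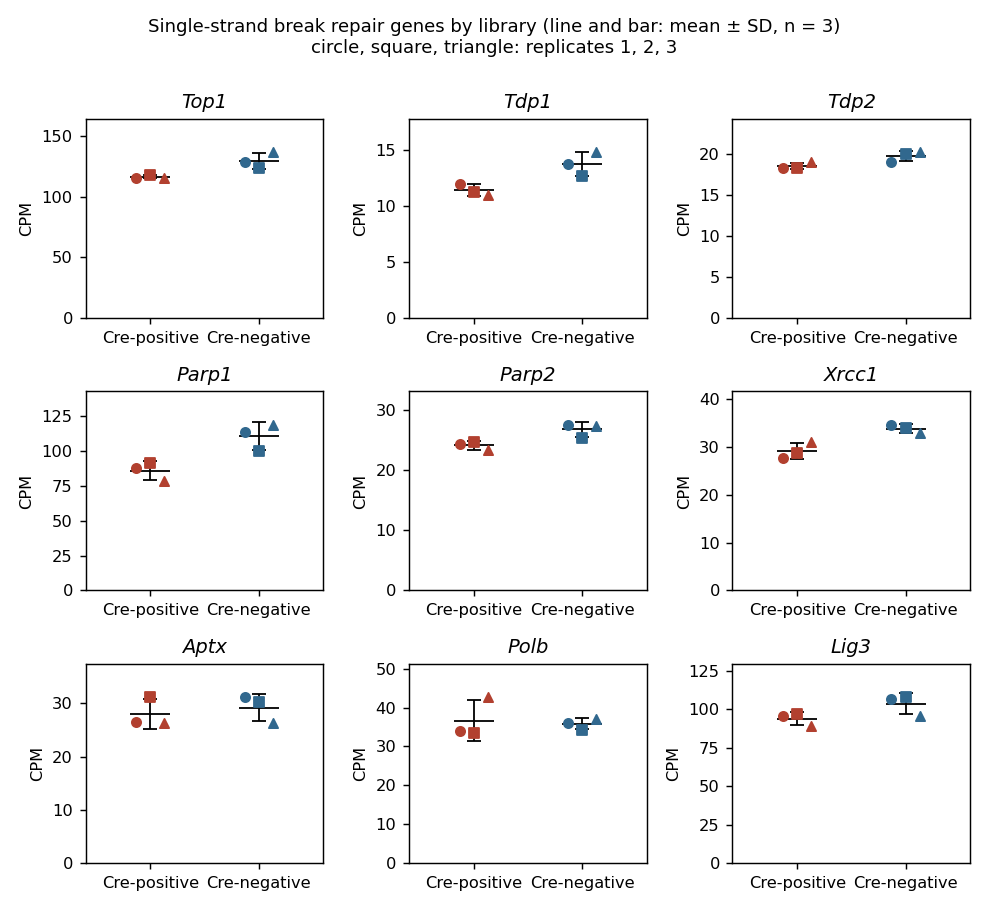
CPM of each of the 9 repair genes in 3 Cre-positive (left) and 3 Cre-negative (right) libraries, with the mean ± SD as line and bar and a vertical axis from 0. The Cre-positive points of Parp1 lie between 78.4 and 91.6 CPM, all under the Cre-negative points at 99.8 to 119 CPM, while the groups overlap for Aptx, Polb and Lig3.

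The stretches of DNA upstream of Parp1, Parp2, Top1 and Tdp1 are shown because every Cre-positive library lay below every Cre-negative one for these genes, and because the RefSeq start of each lies within 100 bases of the gene start in the count table. RefSeq windows on GRCm38.p6, the assembly of mm10, were found for 7 of the 9 genes (2 for Aptx, 1 for each of the others), and Tdp2 and Polb are named only. Each line below gives the 250 bases before the start, 5′ to 3′ on the plus strand, on which all 4 genes lie. Capitals mark every match, on either strand, to any of 12 short promoter motifs.
Parp1, chr1:180568641-180568890: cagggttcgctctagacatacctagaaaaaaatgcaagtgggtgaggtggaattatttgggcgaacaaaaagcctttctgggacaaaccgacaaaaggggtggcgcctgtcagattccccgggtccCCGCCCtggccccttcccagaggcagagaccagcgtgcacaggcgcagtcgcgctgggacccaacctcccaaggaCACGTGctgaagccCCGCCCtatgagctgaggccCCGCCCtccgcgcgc
Parp2, chr14:50807666-50807915: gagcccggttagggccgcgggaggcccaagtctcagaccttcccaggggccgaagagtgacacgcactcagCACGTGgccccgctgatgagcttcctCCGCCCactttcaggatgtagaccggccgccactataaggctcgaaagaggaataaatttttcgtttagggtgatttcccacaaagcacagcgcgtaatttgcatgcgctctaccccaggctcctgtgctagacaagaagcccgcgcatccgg
Top1, chr2:160645647-160645896: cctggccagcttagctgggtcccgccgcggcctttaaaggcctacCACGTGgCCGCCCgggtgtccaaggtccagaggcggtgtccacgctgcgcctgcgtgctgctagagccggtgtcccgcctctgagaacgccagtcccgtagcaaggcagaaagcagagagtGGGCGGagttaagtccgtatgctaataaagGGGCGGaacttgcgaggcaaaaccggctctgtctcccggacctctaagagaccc
Tdp1, chr12:99884268-99884517: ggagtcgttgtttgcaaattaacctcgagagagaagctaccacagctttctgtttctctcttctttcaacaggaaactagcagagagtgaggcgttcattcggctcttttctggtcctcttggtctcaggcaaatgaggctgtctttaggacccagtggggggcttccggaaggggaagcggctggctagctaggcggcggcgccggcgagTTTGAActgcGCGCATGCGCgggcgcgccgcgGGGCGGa

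The GC box GGGCGG, which Sp1 and its relatives bind, was found for 5 of the 7 genes and in 32.7% of all 32851 windows. The E-box CACGTG, bound by factors such as USF and MYC, was found for 4 of 7 genes, Top1, Parp1, Parp2 and Lig3, and in 6.02% of all windows. Lig3 is the gene among these whose groups overlapped. Of the genes with a window and no E-box, Aptx overlapped, whereas Tdp1 and Xrcc1 did not. The NRF1 motif, the longest run of capitals in the Tdp1 window, and the cell cycle homology region TTTGAA were found for Tdp1 alone of the 7, and in 0.782% and 16.0% of all windows. The CCAAT box CCAAT was in the windows of Xrcc1 and Aptx (33.8% of all) and the cAMP response element TGACGTCA in that of Aptx (1.55%). The TATA box TATAAA, the ETS motif CCGGAAGT, the YY1 motif AAGATGGCG, the ZNF143 motif and the E2F motif as TTTCGCGC or TTTGGCGC were found for none of the 7, against 12.4%, 2.88%, 0.606%, 0.253%, 0.256% and 0.417% of all windows. Motif matches did not overlap each other in the printed windows. Binding was not measured, and a match is a run of letters only.

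Top1 encodes the topoisomerase itself and lies on chromosome 2 from 160645888 to 160722764. It had 116, 118 and 116 CPM in Cre-positive libraries, against 129, 124 and 137 CPM in Cre-negative libraries. The Cre-positive values were the tightest of either group among the 9 genes, with a coefficient of variation of 0.904%, under the 1.84% that counting error alone gives at this depth. The log2 fold change was -0.16 (SE 0.07, 95% interval -0.32 to 0.006), which did not pass (adjusted p by edgeR = 0.281). The interval corresponds to between 80.1% and 100.4% of the Cre-negative level.

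Tdp1 (chromosome 12, 99884517 to 99955219) encodes the phosphodiesterase that removes topoisomerase 1 peptides from DNA ends. It had 12.0, 11.2 and 11.0 CPM in Cre-positive libraries and 13.7, 12.7 and 14.8 CPM in Cre-negative ones. All Cre-positive libraries were below all Cre-negative ones, and each library held between 231 and 392 counts. The log2 fold change was -0.27 (SE 0.10, unadjusted p = 0.031, adjusted p by edgeR = 0.225).

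Tdp2 (chromosome 13, 24831679 to 24842153) encodes a phosphodiesterase that acts on the other end of a DNA strand and frees topoisomerase 2. It had 18.3, 18.3 and 19.0 CPM in Cre-positive libraries, against 19.0 to 20.2 CPM in Cre-negative ones (means 18.5 ± 0.397 and 19.8 ± 0.654 CPM, SD, n = 3 each). Its groups only just failed to overlap, and its log2 fold change was -0.09 (SE 0.07, 95% interval -0.26 to 0.08, adjusted p by edgeR = 0.526). Within libraries the ratio of Tdp1 to Tdp2 counts was 0.658, 0.609 and 0.578 in Cre-positive samples and 0.719, 0.634 and 0.733 in Cre-negative samples. The mean log2 ratio differed by -0.18 between the groups, with overlap (two-sided exact permutation p = 0.2; the smallest p that 3 against 3 libraries allow is 0.1).

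Parp1, the main nick sensor and poly(ADP-ribose) polymerase, had the largest difference of the 9. It lies on chromosome 1 from 180568955 to 180601253. Its level was 88.0, 91.6 and 78.4 CPM in Cre-positive libraries, against 114, 99.8 and 119 CPM in Cre-negative libraries. The lowest value was that of Cre-positive replicate 3, yet each of the other Cre-positive libraries also lay below the Cre-negative group. The means were 86.0 ± 6.82 and 111 ± 9.79 CPM (SD, n = 3 each), and the log2 fold change was -0.37 (SE 0.10, 95% interval -0.59 to -0.14). Parp1 ranked 702 of 15525 by p (unadjusted p = 0.00634) and did not pass by edgeR (adjusted p = 0.140) or limma-voom (adjusted p = 0.143). It passed by DESeq2, with a log2 fold change of -0.36 and an adjusted p of 0.0339. Over the 13 alternatives its adjusted p ran from 0.0339 to 0.419 and its log2 fold change from -0.47 to -0.30.

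Parp2 (chromosome 14, 50807946 to 50821300) makes the same modification at nicks and can partly stand in for Parp1. Its level was 24.4, 24.7 and 23.3 CPM in Cre-positive libraries, against 27.6, 25.4 and 27.4 CPM in Cre-negative libraries. The groups did not overlap, and the log2 fold change was -0.15 (SE 0.07, adjusted p by edgeR = 0.314). The ratio of Parp1 to Parp2 counts within a library was 3.60, 3.71 and 3.37 in Cre-positive samples, against 4.14, 3.93 and 4.32 in Cre-negative samples. All Cre-positive ratios were lower, and the mean log2 ratio differed by -0.21 (two-sided exact permutation p = 0.1, the smallest that 6 libraries allow; Benjamini-Hochberg adjusted p = 0.24 over 6 ratios). Such a ratio does not depend on how libraries are scaled.

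Xrcc1 (chromosome 7, 24547150 to 24573438) encodes the scaffold that gathers the repair enzymes and holds Lig3. Its level was 27.7, 28.6 and 30.9 CPM in Cre-positive libraries and 34.6, 33.9 and 32.8 CPM in Cre-negative ones. Here Cre-positive replicate 3 was the nearest to the Cre-negative group, the reverse of its place for Parp1. The log2 fold change was -0.22 (SE 0.08, unadjusted p = 0.0237, adjusted p by edgeR = 0.208). Without Cre-positive replicate 3 it was -0.26 (adjusted p by edgeR = 0.0907).

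**Figure D2:**
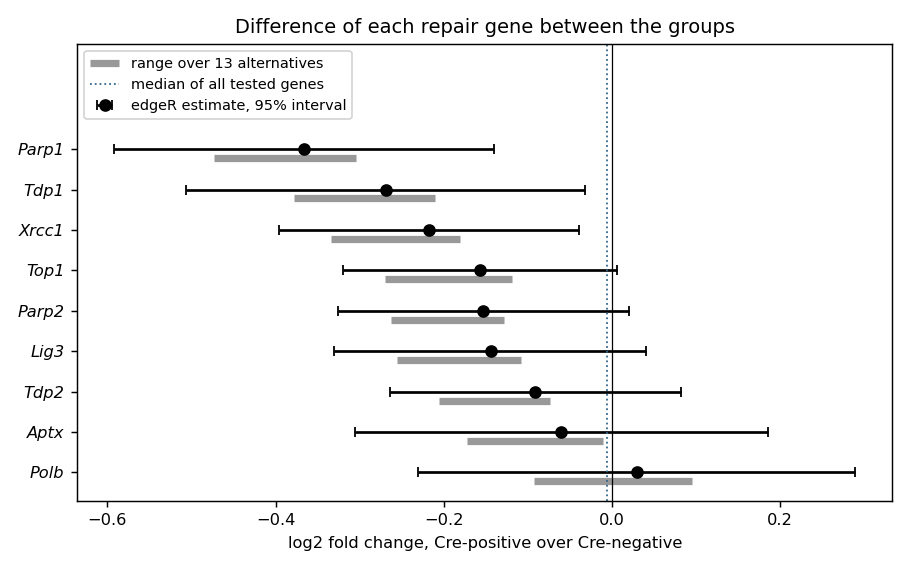
Log2 fold change (Cre-positive over Cre-negative) of each of the 9 repair genes with its 95% interval from edgeR (points and bars), the range over 13 alternative settings (grey) and the median of all tested genes (dotted). The intervals of Parp1, Tdp1 and Xrcc1 lie below 0 before adjustment, and none of the 9 passed after it.

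Aptx, Polb and Lig3 overlapped between the groups in CPM, Lig3 only narrowly. Aptx (chromosome 4, 40682382 to 40703194), which removes AMP left by a failed ligation, also at nicks made beside a ribonucleotide, had 26.6, 31.2 and 26.3 CPM in Cre-positive libraries and 31.2, 30.2 and 26.3 CPM in Cre-negative ones, the same range. Its log2 fold change was -0.06 (SE 0.10, 95% interval -0.31 to 0.19, adjusted p by edgeR = 0.786). Polb (chromosome 8, 22628119 to 22653437), the gap-filling DNA polymerase beta, had 33.9, 33.4 and 42.7 CPM in Cre-positive libraries and 36.1, 34.3 and 37.1 CPM in Cre-negative libraries. The high Polb value of Cre-positive replicate 3 set the spread of its group, with a coefficient of variation of 14.3%, against 3.96% in the Cre-negative group. The log2 fold change of Polb was 0.03 (SE 0.11, adjusted p by edgeR = 0.907), and its sign turned to -0.09 without that library and under total count scaling.

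Lig3 (chromosome 11, 82781108 to 82804274), the ligase that seals the nick, had 95.7, 97.1 and 89.2 CPM in Cre-positive libraries, against 107, 108 and 95.8 CPM in Cre-negative libraries. Cre-negative replicate 3 lay within the Cre-positive range, just below Cre-positive replicate 2. Under total count scaling the groups of Lig3 did not overlap. The log2 fold change was -0.14 (SE 0.08, 95% interval -0.33 to 0.04, adjusted p by edgeR = 0.364). Exons of Rffl, on the other strand, overlap 25.1% of the counted length of Lig3, and Rffl had a mean of 897 counts, beside 2503 for Lig3. The setting for strand is not given, so how reads of that stretch were counted is not known. Rffl itself had a log2 fold change of 0.26 (adjusted p by edgeR = 0.557). No other member shared 5% or more of its exon length with a gene of at least 10 mean counts.

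The other ratios within a library set the enzymes against one another. Polb over Xrcc1 was 1.23, 1.17 and 1.38 in Cre-positive libraries, against 1.04, 1.01 and 1.13 in Cre-negative libraries. This was the other ratio without overlap, with a difference of 0.24 in mean log2 ratio (two-sided exact permutation p = 0.1, Benjamini-Hochberg adjusted p = 0.24). Xrcc1 over Lig3, the scaffold and its bound ligase, was 0.289, 0.295 and 0.347 in Cre-positive libraries, against 0.322, 0.313 and 0.343 in Cre-negative libraries, and overlapped (difference -0.075, exact permutation p = 0.5). Top1 over Tdp1 was 9.60, 10.6 and 10.6 in Cre-positive libraries and 9.46, 9.74 and 9.20 in Cre-negative libraries (difference 0.11, exact permutation p = 0.2). Lig3 over Lig1, the ligase of replication, was 1.37, 1.41 and 2.11 in Cre-positive libraries, against 1.29, 1.40 and 1.12 in Cre-negative libraries (difference 0.34, exact permutation p = 0.2). The value of 2.11 belongs to Cre-positive replicate 3, where Lig1 had 42.2 CPM, beside 69.8 and 68.9 CPM in replicates 1 and 2 and 83.6, 77.1 and 85.6 CPM in Cre-negative libraries. Exons of Zswim9 on the other strand overlap 5.79% of those of Lig1.

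Levels of different genes were compared as CPM per kilobase, a level and not a difference. By the merged length of all counted exons, Polb was the most abundant, at 29.9 ± 4.26 in Cre-positive and 29.2 ± 1.16 CPM per kilobase in Cre-negative libraries (SD, n = 3 each). Parp1 came next with 22.4 ± 1.77 in Cre-positive and 28.8 ± 2.54 CPM per kilobase in Cre-negative libraries, and its range over the 6 libraries overlapped that of Polb. Xrcc1, Parp2, Lig3 and Top1 followed between 11.1 and 16.0 CPM per kilobase, each overlapping the next. Tdp2 (8.74 to 9.66), Aptx (4.47 to 5.31) and Tdp1 (2.01 to 2.72 CPM per kilobase) came last, without overlap between neighbours, and held these places in each of the 6 libraries.

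The order depended on which length was used. The merged exon length of Top1 is 10426 bases, whereas its longest principal transcript in the APPRIS annotation of GENCODE M21 has 3856. Per kilobase of that transcript, a choice made after seeing the data, Top1 had 30.2 ± 0.273 in Cre-positive and 33.7 ± 1.68 CPM per kilobase in Cre-negative libraries. Polb had 30.5 ± 4.35 in Cre-positive and 29.9 ± 1.18 CPM per kilobase in Cre-negative libraries, and the ranges of both genes overlapped. Tdp1 had 5.60 ± 0.282 and 6.75 ± 0.529 CPM per kilobase in Cre-positive and Cre-negative libraries on this scale, and it and Aptx remained the lowest of the 9. Which transcripts the cells used cannot be told from counts per gene.

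**Figure D3:**
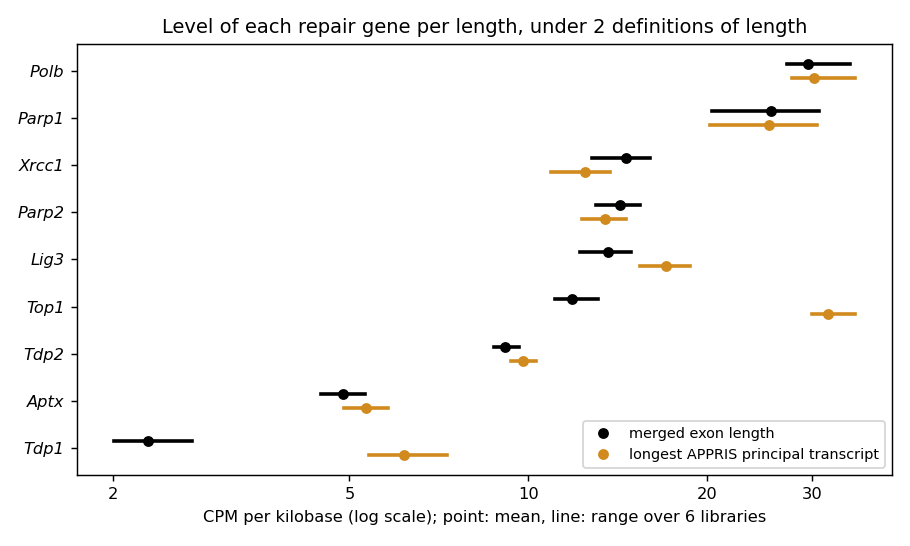
Level of each of the 9 repair genes in CPM per kilobase on a log axis, as the mean (point) and range (line) over the 6 libraries, by merged exon length (black) and by the longest APPRIS principal transcript (orange). Top1 has between 11.1 and 13.1 CPM per kilobase by merged exon length and up to 35.4 by the transcript, the widest shift of the 9.

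The spread seen between libraries was near counting error for some members and beyond it for others. Each value rests on 3 libraries and is imprecise, so it does not sort the members into classes. Tdp2 and Parp2 had coefficients of variation of 2.14% and 3.05% in the Cre-positive group and 3.31% and 4.51% in the Cre-negative group. Counting error alone gives 4.61% and 4.04% in the Cre-positive group and 4.48% and 3.85% in the Cre-negative group. Parp1 varied by 7.92% in Cre-positive and 8.83% in Cre-negative libraries, where counting error gives 2.13% and 1.89%. Aptx varied by 9.84% and 8.81% in the Cre-positive and Cre-negative groups, beside 3.76% and 3.69% from counting. Lig3 varied by 4.47% in Cre-positive and 6.72% in Cre-negative libraries, beside 2.04% and 1.96% from counting. Polb varied by 14.3% in Cre-positive and 3.96% in Cre-negative libraries, beside 3.3% and 3.33% from counting. For Xrcc1 the values were 5.78% in Cre-positive and 2.59% in Cre-negative libraries, beside 3.69% and 3.43%.

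The libraries were also compared with genes of cell division, since Cre-positive replicate 3 stood apart. The mean deviation of the 9 repair genes from the Cre-negative mean was -0.17, -0.14 and -0.16 (log2 CPM) in Cre-positive replicates 1, 2 and 3, and between -0.04 and 0.02 in Cre-negative libraries. The 26 replication genes deviated by -0.12, -0.12 and -0.69 in the same Cre-positive libraries and by -0.12 to 0.07 in Cre-negative ones. The 17 mitosis genes deviated by 0.01, 0.11 and -0.89 in Cre-positive and by -0.10 to 0.09 in Cre-negative libraries. The median log2 fold changes of the replication and mitosis genes were -0.287 and -0.215, and -0.117 and 0.042 without Cre-positive replicate 3. Without it 25 of 26 replication genes were negative, but 12 of 17 mitosis genes were positive and 1 passed as higher by edgeR. With all 6 libraries 0 replication and 0 mitosis genes passed by edgeR or limma-voom. By DESeq2 1 and 0 passed, and 7 (all lower) and 0 had an unadjusted p under 0.05. The replication genes with the smallest p were Pold1, a catalytic subunit of DNA polymerase delta, Pola2, of the primase complex, and Gins2, of the helicase complex, at log2 fold changes of -0.44, -0.31 and -0.56 (adjusted p by edgeR 0.156, 0.179 and 0.191). Gse1 on the other strand covers 67.3% of the exons of Gins2. Within the mean of the repair genes, members of replicate 3 lay apart: Parp1 deviated by -0.33, -0.27 and -0.49 in Cre-positive replicates 1, 2 and 3, and Polb by -0.08, -0.10 and 0.25. The part of the division genes in the values of the repair genes was not tested. Suprabasal markers were highest there, with deviations of 0.14, 0.35 and 0.86 in Cre-positive and -0.12 to 0.08 in Cre-negative libraries. Without replicate 3 the log2 fold changes of Parp1, Tdp1 and Xrcc1 were -0.30, -0.24 and -0.26 (adjusted p by edgeR = 0.115, 0.283 and 0.0907), and all 9 were negative.

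**Figure D4:**
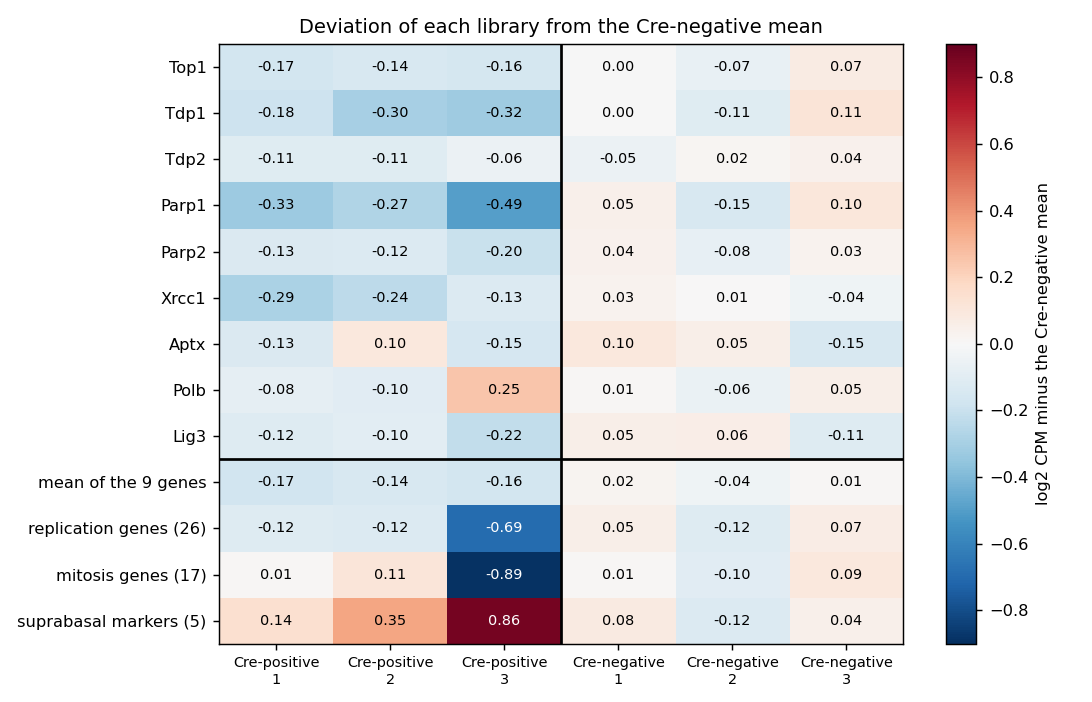
Log2 CPM minus the Cre-negative mean, by gene or gene list (rows) and library (columns, Cre-positive left of the line), on a colour scale from blue (lower) to red (higher). The mean of the 9 genes is -0.17, -0.14 and -0.16 in the Cre-positive libraries, whereas replication genes are at -0.69 in Cre-positive replicate 3 and at -0.12 in the other Cre-positive libraries.

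Some markers of other cell types also differed between the groups, and their part in the values of the repair genes was not tested. Of 8 melanocyte markers 6 rose and 0 fell (edgeR), and their sum was 682 to 778 CPM in Cre-positive and 381 to 442 CPM in Cre-negative libraries. The number that rose was 2 under total count scaling, 2, 1 and 7 without Cre-positive replicate 1, 2 or 3, and 0 without Cre-negative replicate 1, 2 or 3, with all 8 log2 fold changes positive each time. No T cell marker of 7 passed with edgeR or limma-voom, 3 did with DESeq2 and 6 had an unadjusted p under 0.05, all lower, with sums of 14.8 to 21.2 CPM in Cre-positive and 24.5 to 30.5 CPM in Cre-negative libraries. Of 7 myeloid markers tested, Lyz2 rose and the antigen-presentation gene H2-Ab1 fell by edgeR. By limma-voom 1 rose and 0 fell, and by edgeR 0 rose and 0 fell with sex as a covariate and without any 1 library other than Cre-positive replicate 3, where 1 rose and 3 fell. By DESeq2 1 rose and 3 fell, and by edgeR under total count scaling 0 rose and 1 fell. Cd207, also listed, did not pass the filter on low counts. By edgeR with no filter beyond 1 count, where Cd207 was included, 1 rose and 3 fell. The sum of the 7 was 61.3 to 87.9 CPM in Cre-positive and 111 to 151 CPM in Cre-negative libraries. The antigen-presentation genes Cd74, H2-Ab1 and H2-Aa averaged 7.18, 3.48 and 2.06 CPM in Cre-positive libraries, against 38.7, 17.1 and 12.0 CPM in Cre-negative ones, while Csf1r, Tyrobp and Fcer1g averaged 30.9, 11.5 and 8.01 CPM in Cre-positive and 31.8, 12.2 and 8.44 CPM in Cre-negative libraries. Fibroblast markers summed to between 176 and 1370 CPM in Cre-positive and between 196 and 811 CPM in Cre-negative libraries, and endothelial markers to at most 22.6 CPM in any library. Of 6 fibroblast and 5 endothelial markers tested 0 passed by edgeR, DESeq2 or limma-voom, and 0 had an unadjusted p under 0.05. No marker of these lists was at 0 in every library.

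Related genes outside the 9 were counted in 4 lists, and no gene of any list passed by edgeR or limma-voom. Of 21 other genes of end processing and nick repair, 5 had an unadjusted p under 0.05 (4 lower, 1 higher) and 1 passed as lower by DESeq2, with a median log2 fold change of -0.09. It was -0.04 without Cre-positive replicate 3, -0.19 without Cre-positive replicate 2 and -0.17 without Cre-negative replicate 2. Mus81, a nuclease subunit gene that offers another route past trapped topoisomerase 1, had 10.4, 9.21 and 7.94 CPM in Cre-positive and 12.6, 12.8 and 13.2 CPM in Cre-negative libraries (log2 fold change -0.48, SE 0.12, adjusted p by edgeR = 0.130). Xrcc6, which encodes the Ku70 end-binding protein, and Rbbp8, which encodes the end-resection factor CtIP, differed by log2 -0.35 (SE 0.10) and -0.36 (SE 0.11), with edgeR adjusted p of 0.152 and 0.176. Exons of Desi1 on the other strand overlap 7.69% of those of Xrcc6. The 1 higher gene was Sprtn, at 18.9, 19.3 and 21.5 CPM in Cre-positive and 16.9, 16.9 and 14.7 CPM in Cre-negative libraries. Its groups did not overlap (log2 fold change 0.30, SE 0.10, adjusted p by edgeR = 0.187).

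Of 15 other genes whose products write, remove or bind ADP-ribose or help to write it, 3 had an unadjusted p under 0.05, all higher, and 1 passed as higher by DESeq2. The list's median log2 fold change was 0.09, which turned to -0.03 under total count scaling and stayed 0.09 above the median of all genes there. It was 0.16 without Cre-negative replicate 2 and 0.06 without Cre-negative replicate 3. Parp12, an interferon-inducible mono-ADP-ribosyltransferase gene, had 38.5, 28.6 and 35.8 CPM in Cre-positive libraries, against 21.5, 23.1 and 22.2 CPM in Cre-negative ones (log2 fold change 0.63, SE 0.12, adjusted p by edgeR = 0.0785). Parp4 and the tankyrase gene Tnks2 differed by log2 0.51 (SE 0.17) and 0.18 (SE 0.07), with edgeR adjusted p of 0.192 and 0.252.

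Of 10 other topoisomerase genes and partners, 1 had an unadjusted p under 0.05 and 0 passed by DESeq2, and the median log2 fold change was -0.04, or -0.07 and -0.09 without Cre-positive replicate 1 or 2. That gene was Rmi1, which encodes a partner of topoisomerase 3 alpha, at -0.39 (SE 0.15, adjusted p by edgeR = 0.235). Its partner Rmi2 had -0.61 (SE 0.31) and Top3b 0.17 (SE 0.10), with edgeR adjusted p of 0.327 and 0.406. Of 11 DNA glycosylase genes, which remove damaged bases at the start of base excision repair, 0 had an unadjusted p under 0.05 and 0 passed by DESeq2. The smallest p among these was that of Ung, the uracil glycosylase, at 22.8, 23.0 and 11.4 CPM in Cre-positive and 28.5, 23.8 and 28.9 CPM in Cre-negative libraries (log2 fold change -0.50, SE 0.25, adjusted p by edgeR = 0.330). Neil3 and Mbd4 followed at -0.28 (SE 0.15) and -0.23 (SE 0.12), with adjusted p by edgeR of 0.359 and 0.360. The median of the glycosylase list was -0.14, and -0.06 and -0.08 without Cre-negative replicate 2 or 3.

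**Figure D5:**
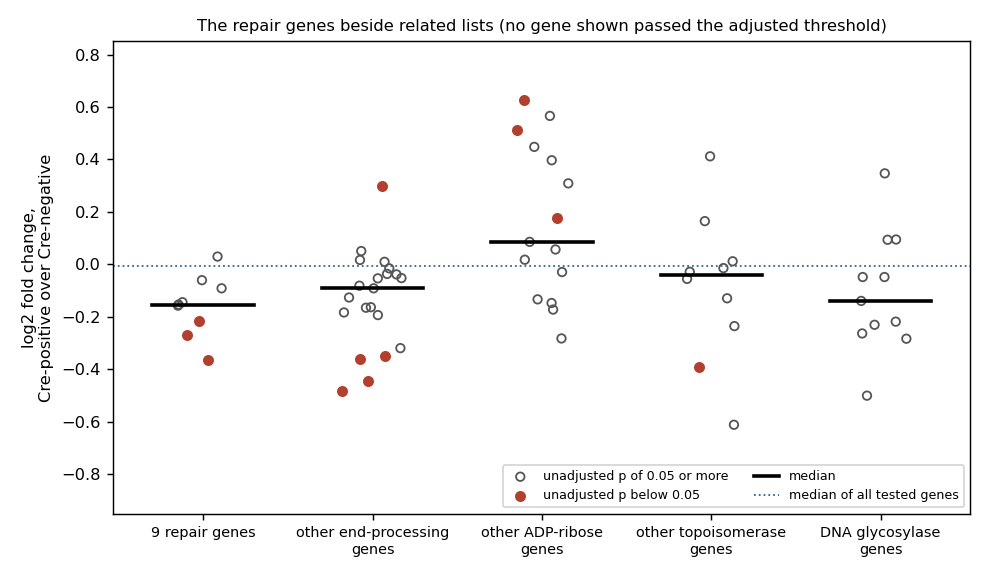
Log2 fold change (Cre-positive over Cre-negative) of single genes in the 9 repair genes and in 4 related lists, with each list's median (bar), the median of all tested genes (dotted) and genes with an unadjusted p under 0.05 filled. The 9 repair genes have a median of -0.15 and the other ADP-ribose genes one of 0.09.

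The genes whose levels over the 6 libraries were most like those of Parp1 and Xrcc1 were found among 13879 genes with a mean of at least 1 CPM, by the root mean square difference of centred log2 CPM. For Parp1 these were Pigyl (0.02), Hspb6 (0.02) and Kif7 (0.03), beside the 0.21 by which Parp1 itself varied. For Xrcc1 they were Fam83c (0.03), Slc22a4 (0.03) and Usf1 (0.03), beside 0.12 for Xrcc1 itself. None of these 6 passed the threshold by edgeR, with log2 fold changes between -0.36 and -0.23. Choosing them by likeness over the same libraries largely fixed these values in advance.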

How the data were processed

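RNA from CD49f-positive epidermal cells was sequenced in 3 Cre-positive and 3 Cre-negative samples. A table of raw counts by gene and library was deposited by the authors, along with merged exon lengths, per the file headers. GSNAP and featureCounts on mm10 made it, per the submitters' processing notes. The library kit keeps strand, per the labels' protocols. Tool versions, the counting's strand option and its rule for shared reads: not given in the sources used here. Symbols were matched by identifier for 37607 of 38924 genes.

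Genes were kept by filterByExpr (minimum count 10), scaled with TMM factors and compared by quasi-likelihood in edgeR 4.0.16 (R 4.3.3), two-sided. The 15525 p-values were adjusted by Benjamini-Hochberg. An adjusted p of 0.05 was the threshold, and the design held the Cre genotype alone. The SE and the unadjusted 95% intervals come from the same test. CPM refer to scaled library sizes, in which 3 counts correspond to between 0.0922 and 0.143 CPM, a floor for counting error only. Deviations use log2 CPM with a prior count of 2. Alternatives were DESeq2 size factors, total count scaling, DESeq2 1.42.0, limma-voom (limma 3.58.1), a mean of at least 1 CPM, keeping every gene with 1 count, sex as a covariate and leaving out each library. The fits were tested on simulated counts. Ratios of counts were compared by exact permutation of 6 libraries. No libraries of a group were identical.

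The members and lists were chosen with earlier results of these data known. All 9 members were named, then up to 3 genes of each list with the smallest p, and the 3 genes most like each of the 2 members with the smallest p. Lig1 was named as part of a ratio, and Sprtn as the 1 higher end-processing gene with an unadjusted p under 0.05. Markers were given as totals, and some keratinocyte and myeloid markers were also named singly.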

Additional observations from a re-analysis of the deposited data

How the results depend on the processing

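The log2 fold changes of Top1, Tdp1, Tdp2, Parp1, Parp2, Xrcc1, Aptx and Lig3 were negative under all 13 alternatives. That of Polb turned to -0.092 under total count scaling, and ran from -0.092 (without Cre-positive replicate 3) to 0.092 when 1 library was left out. The number of the 9 genes past the threshold was 0 in all alternatives but DESeq2, where it was 1. The number of the 9 with an unadjusted p under 0.05, 3 by edgeR, was 6 under total count scaling and 2 with sex as a covariate. By DESeq2 it was 2, and by edgeR without any 1 library it was 1 or 2. The number of all genes past the threshold, 80, was 41 under total count scaling, 847 by DESeq2, 142 with no filter beyond 1 count, 42 with sex as a covariate and 0 to 422 when 1 library was left out. It was 0 without Cre-negative replicate 1 or 2, 1 without Cre-negative replicate 3, 25 and 7 without Cre-positive replicate 1 or 2, and 422 without Cre-positive replicate 3. The cause was not tested, and the fits without a library rest on 5 samples. The 6 ratios within libraries kept their direction with a pseudocount of 1 and without any 1 library. The level per length moved by more than 1 SD in 6 of 18 comparisons of length or total. Depth limits Tdp1 most, where counting error is 5.86% in the Cre-positive and 5.37% in the Cre-negative group. No paired analysis was possible because the labels give no replicate numbers that groups share.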
